A study of Mus musculus with 6 samples.

Results

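Transcripts of the oxidative phosphorylation (OXPHOS) system were examined in MuSCs (muscle stem cells, which lie along the fibres of skeletal muscle) freshly isolated from control and Taf4asKO mice. The genes were taken by name and biotype from a table of 22081 genes: protein-coding genes of the Nduf, Sdh, Uqcr, Cyc1, Cox4 to Cox8 and Atp5 families and the protein-coding genes of the mitochondrial genome, with a mean of at least 5 normalized counts over the 6 libraries. All 99 genes that matched the names also reached that mean, 92 of them encoded in the nucleus and 7 in the mitochondrial genome. The nuclear genes comprised 38 of complex I, 4 of complex II, 9 of complex III, 16 of complex IV and 17 of complex V by name, together with 8 assembly factors of complex I (Ndufaf genes). Nearest to the limit were Atp5l with a mean of 5.83, Cox6a2 with 8.5, Ndufb4 with 13, Cox6b2 with 13.2 and Cox8b with 13.5 normalized counts, and these 5 were the only members with a mean under 20.

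The respiratory chain passes electrons from NADH and succinate through complexes I to IV to oxygen and pumps protons across the inner mitochondrial membrane, and the ATP synthase, complex V, uses the proton gradient to make ATP. Complexes I, III, IV and V combine subunits from the nuclear and the mitochondrial genome, whereas complex II is entirely nuclear encoded. Quiescent MuSCs are known for few mitochondria and a low metabolic rate, and their activation is accompanied by an increase in mitochondrial mass.

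The series held 3 libraries per group from mice of the C57BL/6 strain. Taf4asKO mice carried floxed Taf4a alleles (the gene Taf4, a TFIID subunit, with exons 11 to 12 flanked by loxP sites) and the tamoxifen-inducible Pax7CreERT, so that deletion was directed to Pax7-expressing cells, after tamoxifen given at 8 to 20 weeks of age. The labels call the other group control or WT. The methods list as controls littermates with the same floxed alleles, with or without Pax7CreERT, and do not state which of them received tamoxifen; mice of either group could carry a Pax7 zsGreen reporter. RNA came from sorted cells and each library was made from 10 ng of total RNA; the labels do not say whether libraries came from separate animals or pools, so p-values measure only the spread between these samples. Gene-level Taf4 was 613, 534 and 478 normalized counts in control against 631, 565 and 574 in Taf4asKO (log2 fold change 0.13, limma adjusted p = 0.524), a value that sums all exons and cannot show the loss of a pair of them, so directions below follow the labels.

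Library totals were 12338676 to 14551732 normalized counts in control libraries and 13036518 to 13523386 in Taf4asKO. Of 10 MuSC markers, 4 were lower in Taf4asKO (Cd34, Myf5, Cdh15 and Itga7) and 3 higher (Sdc4, Vcam1 and Msc). Their sum was 40293 to 43147 normalized counts in control and 40748 to 42448 in Taf4asKO. Pax7, which did not pass, was at 12082 to 13007 and 10363 to 11164. Markers of other cells were also present. Summed markers of Schwann and glial cells (4 of 5 higher in Taf4asKO) ran from 1178 to 2890 in control and from 3480 to 4266 in Taf4asKO, those of endothelial cells (0 of 6 past the threshold) from 923 to 1399 and from 1515 to 1986, those of immune cells (3 of the 6 listed in the table, 0 past the threshold) from 422 to 538 and from 666 to 924 (Lyz2 was above 0 on the log2 scale of change, Cd68 and Csf1r below), and those of mural cells (2 of 5 higher) from 9113 to 14153 and from 14118 to 16415. The sum of 8 markers of fibro-adipogenic progenitors (1 lower) ran from 53375 to 79360 and from 33348 to 55548. The lower sum came from Col3a1 (46225 to 47700 in control, 13082 to 17573 in Taf4asKO), while the other 7 had positive log2 fold changes (0.54 to 1.24) and did not pass. The sum of 5 erythroid markers (0 past the threshold) ran from 61 to 231 and from 91 to 167. Per the methods, cells positive for SCA1, CD45 or CD31 were depleted before sorting, and the sorted cells were not reported as fully pure. In such bulk samples fewer cells of a type and less RNA per cell cannot be told apart, and the part of other cells in the OXPHOS values was not tested.

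Few OXPHOS genes changed between the groups. Cox7a2l, a paralog of the complex IV subunit gene Cox7a2, was lower in Taf4asKO. Atp5sl, a gene named after the ATP synthase whose product acts in the assembly of complex I, was lower too. Cox6a1, the ubiquitous isoform of a complex IV subunit, was higher. These were 3 of 99 members (3.03%) past the threshold of a limma adjusted p under 0.05 and a fold of at least 1.3, against a background of 12.6% of 18562 tested genes, 6.71% lower and 5.93% higher. Among protein-coding genes 15.1% passed, and among those with a mean at least as high as the median nuclear-encoded member 21% passed. At an unadjusted p under 0.05 the numbers were 18 of 99 members against 28.8% of all tested genes. The libraries of the groups did not overlap for 19 of 99 members, 11 higher and 8 lower in Taf4asKO, against 33% of tested genes (16.6% higher, 16.4% lower) and 37.2% of protein-coding ones (20.2% higher, 17% lower). Over the 99 members together the share thus lay below the background in each of these counts, a description with no test of the list.

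The labels do not say what the replicate numbers mark. Deviations from group means correlated at 0.235, 0.126 and 0.15 for same-numbered libraries, which with 3 libraries per group cannot establish a pairing. When that number entered the fit as a block, 3 members were lower and 7 higher, against a background of 18.1% (8.98% lower and 9.09% higher). The added lower gene was Cox7a1. The added higher ones were Cox6c, Ndufb8, Ndufaf2, mt-Nd4, mt-Nd6 and mt-Cytb, of which the nuclear genes are named because they passed and not by the rule for named genes.

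**Figure D1:**
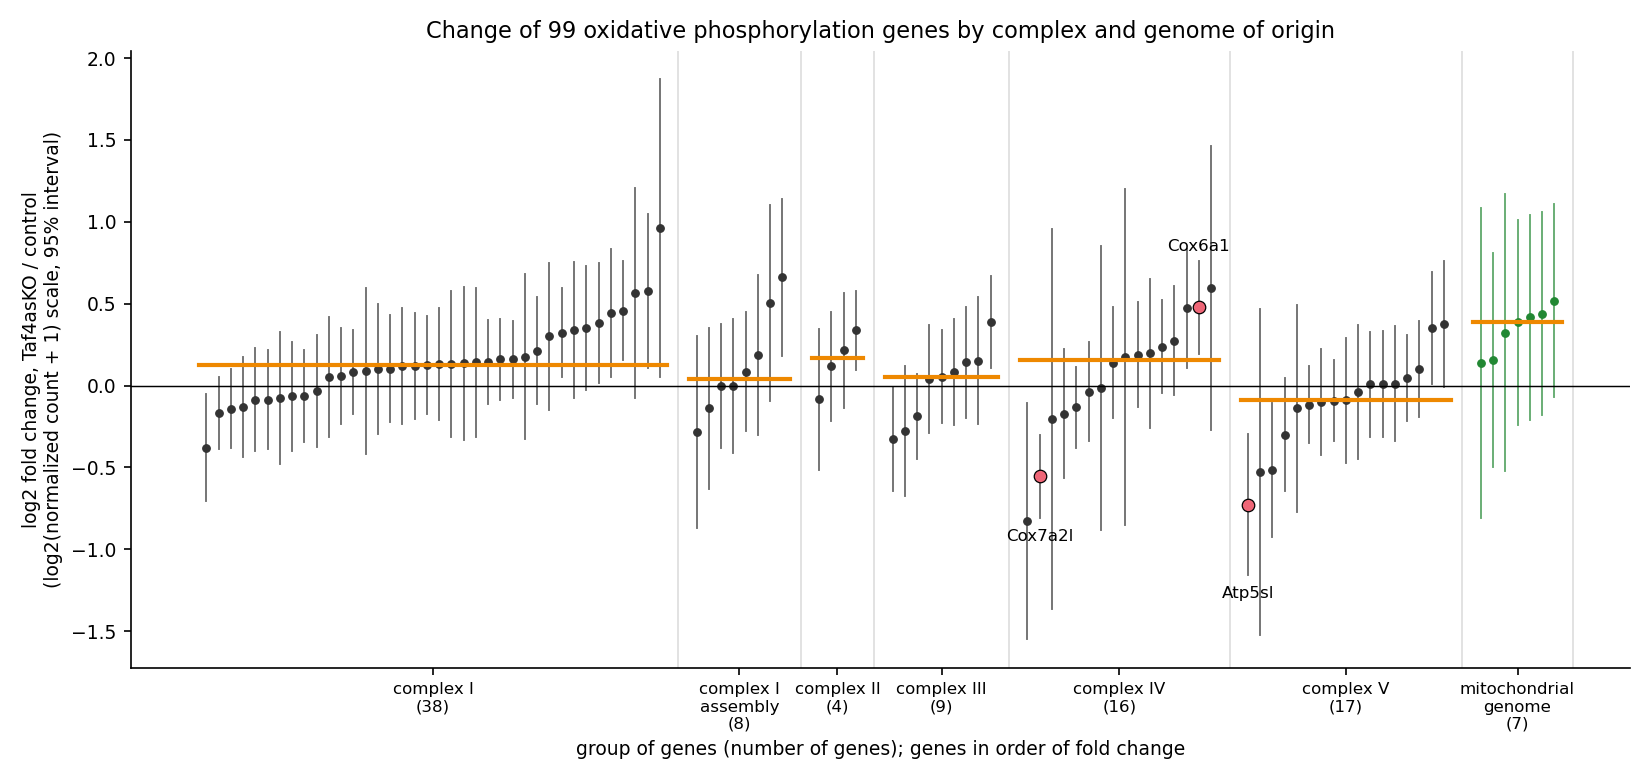
Log2 fold change (vertical axis, Taf4asKO over control on the log2(normalized count + 1) scale) of the 99 genes, grouped by complex for the 92 nuclear-encoded genes and shown together for the 7 mitochondrially encoded ones (green). Bars are 95% intervals from limma, orange lines group medians, and large red points the 3 genes past the threshold; most intervals cross 0 and all 7 mitochondrially encoded genes lie above 0.

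The precision behind these calls can be read from the intervals. For 52 of 99 members the 95% interval of the fold change lay within 1.5-fold in both directions, against 28.5% of all tested genes. All 52 were nuclear encoded (56.5% of the 92), and none was among the 7 mitochondrially encoded members, whose intervals were wider (median SE 0.28 on the log2 scale, against 0.15 for nuclear-encoded members). In this fit a change of 1.5-fold or more was therefore outside the interval for 52 of the nuclear genes. It was inside the interval for the other 40 and for the mitochondrial mRNAs. With the replicate number as a block (below), the log2 intervals of mt-Nd1 (-0.27 to 0.55) and mt-Co1 (-0.13 to 0.44) lay within 1.5-fold, and those of the other mitochondrial mRNAs did not.

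By genome of origin, the median log2 fold change was 0.088 over the 92 nuclear-encoded members and 0.39 over the 7 mitochondrially encoded members, beside 0.004 over all tested genes and 0.042 over protein-coding genes. Of the nuclear-encoded members 57 lay above 0 and 35 below. Of the mitochondrially encoded members 7 of 7 lay above 0 on the log2 scale, with 0 past the threshold (12.6% of all tested genes). For mt-Nd1 the group means went the other way, at 37783 normalized counts in control and 36586 in Taf4asKO. At an unadjusted p under 0.05 the mitochondrial count was also 0 (28.8% of all tested genes), as was the count past the threshold under limma-voom. The summed nuclear-encoded members were 36137, 46966 and 35860 normalized counts in the controls and 41043, 40618 and 40117 in Taf4asKO. The mitochondrially encoded sum was 111563, 300596 and 212128 in control and 177042, 282127 and 264885 in Taf4asKO. Both sums overlapped between the groups: the highest library of each was control replicate 2, and the spread among controls exceeded the difference between group means. Without control replicate 1, the median of the mitochondrially encoded members was 0.030 and the log2 ratio of their summed group means went from 0.21 to -0.087. For the nuclear-encoded members the median was 0.19 without control replicate 2, 0.022 without control replicate 1 and -0.00098 without control replicate 3.

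Control replicate 2 stood apart for this gene set. It was the highest control for 88 of 99 members and lay above its group mean for 86 of 92 nuclear-encoded members, against 13 in control replicate 1, 19 in control replicate 3 and 36 to 54 in the Taf4asKO libraries. The median deviation of nuclear-encoded members from the group mean was 0.23 on the log2 scale in control replicate 2, while that of all tested genes was 0.032. The summed 12 muscle fibre markers (1 lower in Taf4asKO, Atp2a1) were also highest in this library, at 7593 normalized counts against 3256 and 3843 in the other controls and 3594 to 4258 in Taf4asKO, and whether the fibre RNA has a part in the OXPHOS values was not tested.

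Without control replicate 2, 16 members were higher and 2 lower, that is 16.2% higher against a background of 8.62% for the same fit (7.99% lower). The 16 included Sdha and Sdhb of complex II, Ndufa4, Ndufb8, Ndufb9, Ndufc1 and Ndufv2 by name of complex I, Cox6a1, Cox6b1, Cox6c and Cox8a of complex IV, Atp5f1 and Atp5j2 of complex V, Uqcr11 of complex III and the assembly factors Ndufaf1 and Ndufaf2. Leaving out any other library gave 0 higher members, and the lower members then numbered 2 without control replicate 1, 1 without control replicate 3, 1 without Taf4asKO replicate 1 and 0 without Taf4asKO replicate 2 or 3. In these 5 fits the share of all tested genes that were higher was also smaller, at 4.07% without control replicate 1, 5.88% without control replicate 3 and 2.6%, 1.88% and 1.94% without Taf4asKO replicates 1, 2 and 3. The shares lower were 5.17%, 5.87%, 4.11%, 3.38% and 3.2% in the same order. The median of the nuclear-encoded members and the number of higher genes thus moved with single control libraries.

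**Figure D2:**
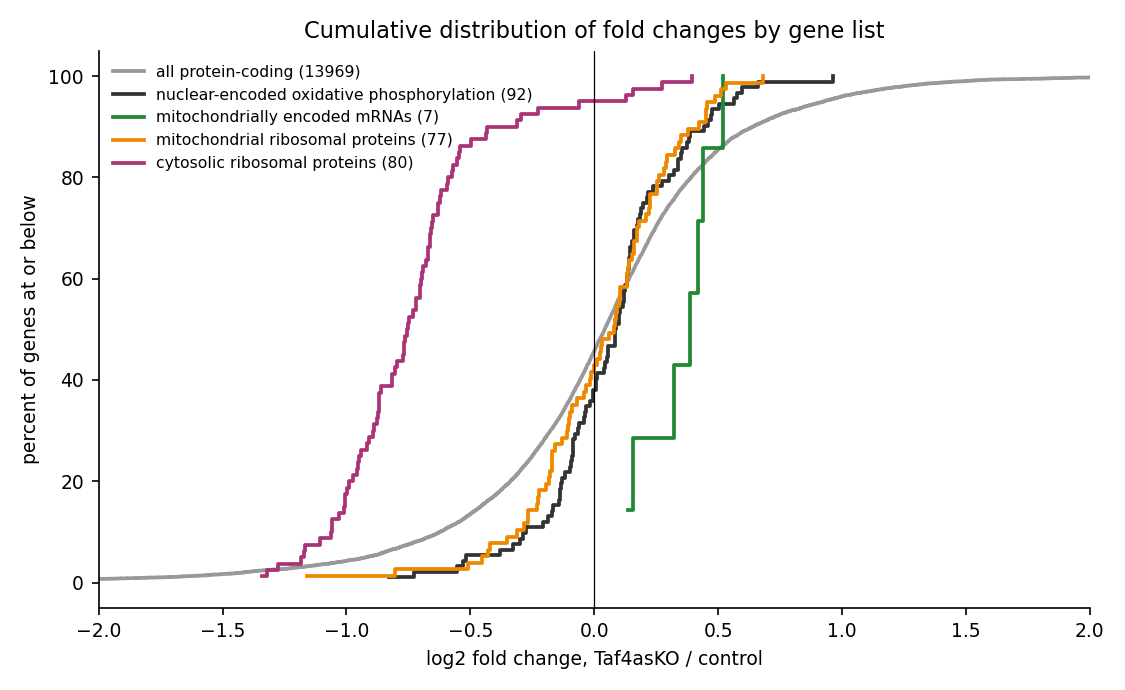
Cumulative percentage of genes (vertical axis) at or below a log2 fold change (horizontal axis, Taf4asKO over control) for nuclear-encoded OXPHOS genes, mitochondrially encoded mRNAs, ribosomal protein genes of mitochondrial and cytosolic ribosomes and all protein-coding genes. The nuclear-encoded OXPHOS genes (median 0.088) run beside the mitochondrial ribosomal proteins (median 0.079) and more steeply than all protein-coding genes, and the cytosolic ribosomal proteins lie to the left (median -0.75).

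Against other large groups of housekeeping genes, nuclear-encoded OXPHOS genes stood near mitochondrial ribosomal protein genes, of which 3 of 77 were lower and 2 higher with a median log2 fold change of 0.079. Cytosolic ribosomal protein genes, which form the ribosome outside mitochondria, showed 66 of 80 lower and 0 higher, with a median of -0.75. Nuclear-encoded OXPHOS genes are short, with a median exon length of 1696.5 bases against 4471 for protein-coding genes. With each library adjusted for GC content and exon length, their median was 0.12, and 2 were lower and 2 higher (5.89% lower and 5.64% higher among all genes of that fit).

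The 38 nuclear genes of complex I, the NADH dehydrogenase, had a median log2 fold change of 0.13 with 28 above 0. With limma 0 passed the threshold, against 12.6% of all tested genes, and 7 had an unadjusted p under 0.05, against 28.8%. With limma-voom 0 passed the threshold. In the hydrophilic N module, where NADH is oxidised, Ndufs1, the iron-sulfur subunit with the largest number of clusters, was at 697, 827 and 723 normalized counts in control against 788, 862 and 856 in Taf4asKO. Ndufv1, the flavin-carrying subunit that binds NADH, was at 669, 802 and 657 in control and 782, 836 and 752 in Taf4asKO. The values overlapped for both, with log2 fold changes of 0.16 each.

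Ndufb11, a membrane-arm subunit and first among nuclear genes of complex I in control level per kb of exon, in a range that overlapped with that of the next gene (540.0 ± 21.9 normalized counts per kb, SD, n = 3), was at 473, 512 and 486 in control and 460, 409 and 467 in Taf4asKO. The groups did not overlap, and the gene did not pass (log2 fold change -0.14, limma adjusted p = 0.434).

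By module the median log2 fold changes were 0.14 for 10 genes listed for the N module and -0.033 for 5 listed for the Q module. The 23 remaining genes by name, most of them of the membrane arm, had a median of 0.14. These 23 include Ndufa9 (0.10), which is also assigned to the Q module, and Ndufa4 and Ndufa4l2. The medians thus depend on the lists, and the modules were not compared by a test. Ndufb8, a membrane-arm subunit often used as a marker of assembled complex I, was at 238, 304 and 235 normalized counts in the controls and 351, 368 and 342 in Taf4asKO, with no overlap. Its log2 fold change of 0.46 had a limma adjusted p of 0.0521 without the block and 0.025 with the replicate block, and it also passed under upper-quartile and both total-count scalings. The assembly factor Ndufaf2 was at 65, 75 and 47 in control and 97, 100 and 95 in Taf4asKO, with a log2 fold change of 0.66 and adjusted p of 0.0712 without and 0.0443 with the block, which became 0.0537 with upper-quartile scaling and the block. Its exons overlap a transcript on the opposite strand, and whether counting used strand is not stated, so its value is uncertain. This limit holds for all 29 nuclear members with exons overlapping a gene on the other strand, among them Ndufs1, Ndufb11, Ndufa4l2 and Cox4i1.

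Ndufa4 is named after complex I but is regarded as a subunit of complex IV, and Ndufa4l2 is its paralog, known from hypoxia and from mural cells. Ndufa4 was at 90, 151 and 94 normalized counts in control against 170, 149 and 169 in Taf4asKO. Control replicate 2 reached the Taf4asKO range while the other controls lay far below it. The log2 fold change of 0.58 (SE 0.21) had a limma adjusted p of 0.102, and without control replicate 2 it was 0.81 with an adjusted p of 0.00905. Ndufa4l2 was at 45, 41 and 83 in control and 87, 91 and 64 in Taf4asKO, overlapping and with an adjusted p of 0.228.

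Complex II, the succinate dehydrogenase, also acts in the citric acid cycle. Sdha, the flavoprotein subunit that oxidises succinate, was at 1794, 2255 and 1906 normalized counts in control libraries and 2393, 2678 and 2436 in Taf4asKO. All Taf4asKO libraries lay above all controls, and the mean went from 1985 ± 240 to 2502 ± 154 (SD, n = 3). The log2 fold change of 0.34 (SE 0.11) had a limma adjusted p of 0.0669 without the block and 0.020 with it, and its size stayed under the 1.3-fold limit in both. Sdhb, the iron-sulfur subunit, was at 352, 468 and 303 in control and 452, 414 and 418 in Taf4asKO, within the control range. All 4 genes of complex II had intervals within 1.5-fold, and 0 passed with limma or limma-voom (12.6% of all tested genes with limma). At an unadjusted p under 0.05 there was 1, against 28.8% of all tested genes.

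In complex III, which passes electrons from ubiquinol to cytochrome c, 0 of 9 nuclear genes passed with limma, against 12.6% of all tested genes. At an unadjusted p under 0.05 there were 2, against 28.8%, and 0 passed the threshold with limma-voom. The median was 0.055. Uqcrh, a hinge subunit and the nuclear complex III gene with the highest control level per kb, was at 788, 991 and 683 normalized counts in the controls and 715, 603 and 627 in Taf4asKO. Uqcrfs1, the Rieske iron-sulfur protein, was at 479, 663 and 400 in control and 476, 388 and 386 in Taf4asKO. Cyc1, cytochrome c1, was at 436, 556 and 381 in control and 481, 423 and 495 in Taf4asKO. The values of all these genes overlapped, with log2 fold changes of -0.33, -0.28 and 0.041 and limma adjusted p of 0.163, 0.34 and 0.889. Uqcr11, named after its values were seen, did not overlap, at 228, 259 and 249 in control and 324, 292 and 349 in Taf4asKO, with an adjusted p of 0.0734 that fell below the threshold with the GC and length adjustment.

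In complex IV, the cytochrome c oxidase, 1 of 16 nuclear genes was lower and 1 higher (12.5%, against 12.6% of all tested genes), and with the replicate block 2 were lower and 2 higher (25%, against 18.1%). Cox7a2l (ENSMUSG00000024248, mm10 chromosome 17, 83501919 to 83514333, minus strand) was at 468, 521 and 441 normalized counts in control against 325, 329 and 316 in Taf4asKO. Every Taf4asKO library lay below every control, and the mean fell from 476.7 ± 40.7 to 323.3 ± 6.66 (SD, n = 3). The log2 fold change was -0.56 (SE 0.11, limma adjusted p = 0.0116). The call was lost without Taf4asKO replicate 2 or 3 (adjusted p = 0.058 and 0.0646), with log2 fold changes between -0.61 and -0.49 over the 6 fits that each left out a library. Of the 75-base windows of its longest transcript, 13.4% also occur in another gene's transcripts, and the authors removed reads that mapped to several places.

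Cox7a2l has the paralogs Cox7a2, the ubiquitous isoform of a complex IV subunit, and Cox7a1, the isoform of heart and skeletal muscle. Cox7a2 was at 183, 241 and 223 normalized counts in control libraries and 231, 253 and 250 in Taf4asKO, overlapping and with a log2 fold change of 0.19 (limma adjusted p = 0.42). Cox7a1 was at 72, 39 and 42 in control and 38, 22 and 24 in Taf4asKO, with a log2 fold change of -0.83 and adjusted p of 0.124 without and 0.0443 with the replicate block, which became 0.142 with the GC and length adjustment and the block. Per kb of exon, Cox7a2l took 49.1%, 51.8% and 48.7% of the summed Cox7a signal in control and 41.1%, 41.9% and 40.8% in Taf4asKO. Cox7a2 took 30.1%, 37.5% and 38.5% in control and 45.7%, 50.4% and 50.6% in Taf4asKO. The shares of Cox7a2l and Cox7a2 did not overlap between the groups, whereas the Cox7a1 share ran from 10.7% to 20.9% and from 7.73% to 13.3%. Cox7a2 held the largest share in Taf4asKO only after division by exon length (1478 bases for Cox7a2l, 944 for Cox7a2). In normalized counts Cox7a2l lay above Cox7a2 in every library. The windows that Cox7a2l shares with another gene (13.4%) were not taken out of its length. An exact permutation test of 3 against 3 libraries cannot give a two-sided p under 0.1. Such shares are given as a description, with no test.

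**Figure D3:**
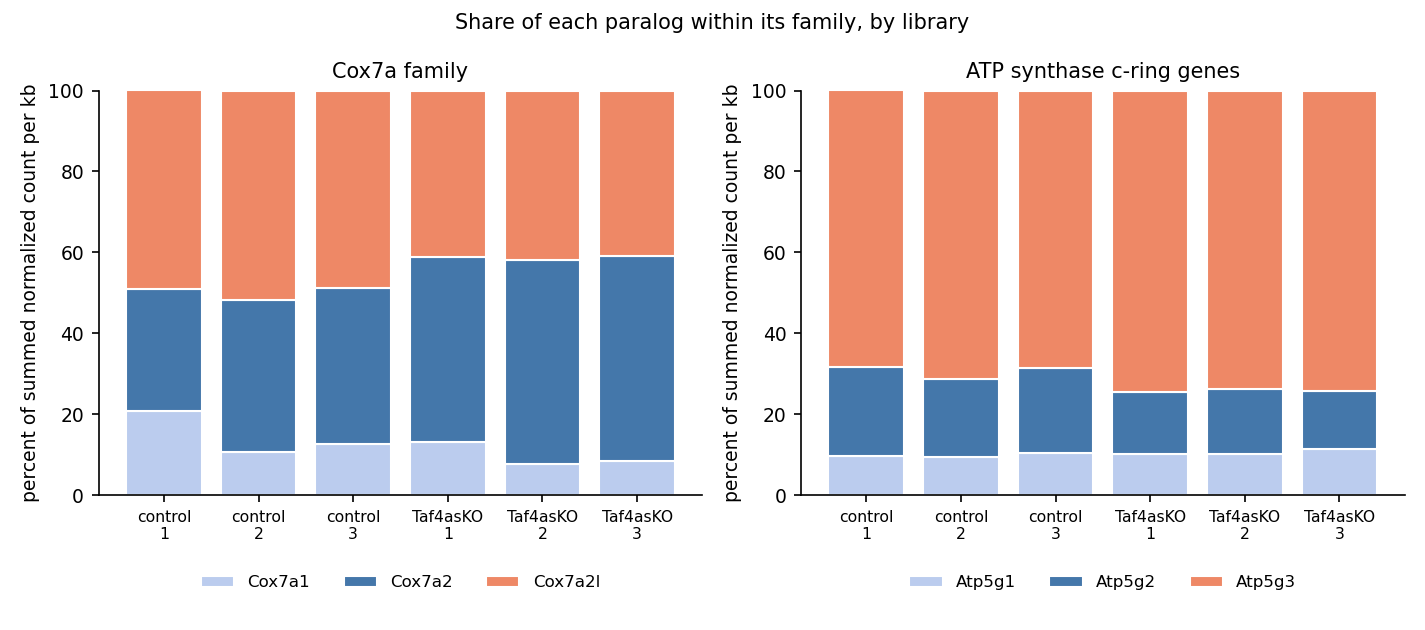
Percentage of the summed normalized counts per kb of exon (vertical axis, stacked bars) taken by each gene of the Cox7a family and of the ATP synthase c-ring, in each of the 6 libraries. Cox7a2l made up 48.7% to 51.8% in control and 40.8% to 41.9% in Taf4asKO, and Atp5g2 made up 19.1% to 21.9% in control and 14.3% to 16.0% in Taf4asKO.

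Cox6a1 (ENSMUSG00000041697, chromosome 5, 115345642 to 115348981, minus strand) was at 280, 369 and 316 normalized counts in the controls and 438, 453 and 445 in Taf4asKO. Every Taf4asKO library lay above every control, and the mean rose from 321.7 ± 44.8 to 445.3 ± 7.51 (SD, n = 3). The log2 fold change was 0.48 (SE 0.13, limma adjusted p = 0.036). The call was kept only without control replicate 2, where the log2 fold change was 0.58 and the adjusted p 0.0092, and was lost in the other 5 fits that each left out a library (adjusted p from 0.072 to 0.139, log2 fold changes from 0.38 to 0.49). With the GC and length adjustment the log2 fold change was 0.76 (adjusted p = 0.0162).

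The muscle isoforms Cox6a2 and Cox8b were at low levels in both groups, and their ubiquitous partners took nearly all of each pair. Cox6a2 was at 5, 7 and 12 normalized counts in control against 13, 7 and 7 in Taf4asKO, and Cox8b at 8, 18 and 16 in control and 20, 14 and 5 in Taf4asKO. Per kb, Cox6a1 held 96.2% to 98.2% of the Cox6a pair in control and 97.0% to 98.4% in Taf4asKO, and Cox8a, the nuclear complex IV gene with the highest level per kb, held 96.4% to 98.2% and 96.5% to 99.1% of the Cox8 pair. Cox6b1 likewise held 96.0% to 97.7% and 96.6% to 98.2% beside Cox6b2, which is known from testis.

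Cox4i1 encodes the ubiquitous and Cox4i2 the lung and hypoxia isoform of an early-assembling complex IV subunit. Cox4i1 was at 1151, 1398 and 1130 normalized counts in control libraries and 1181, 1112 and 1048 in Taf4asKO, and Cox4i2 at 12, 35 and 23 in control and 32, 41 and 27 in Taf4asKO. Neither passed, with limma adjusted p of 0.467 and 0.345. The Cox4i2 share of the pair was 2.01% to 4.69% in control and 4.82% to 6.76% in Taf4asKO without overlap, at a level of at most 41 normalized counts per library. Mural cell markers, whose cells are known to express Cox4i2, had the sums given above, with Rgs5 at 1153 to 2426 in control and 3755 to 4237 in Taf4asKO and Acta2 at 3553 to 6801 and 3241 to 4414 (log2 fold change -0.31, not past the threshold), and their part in this share was not tested.

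Cox6c, the small complex IV subunit named because it passed with the block, was at 276, 420 and 282 normalized counts in the controls and 461, 446 and 426 in Taf4asKO. The groups did not overlap, and control replicate 2 was the closest. For Cox6c the log2 fold change of 0.47 had a limma adjusted p of 0.0867 without and 0.0358 with the block. Its exons overlap Vps13b on the opposite strand.

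**Figure D4:**
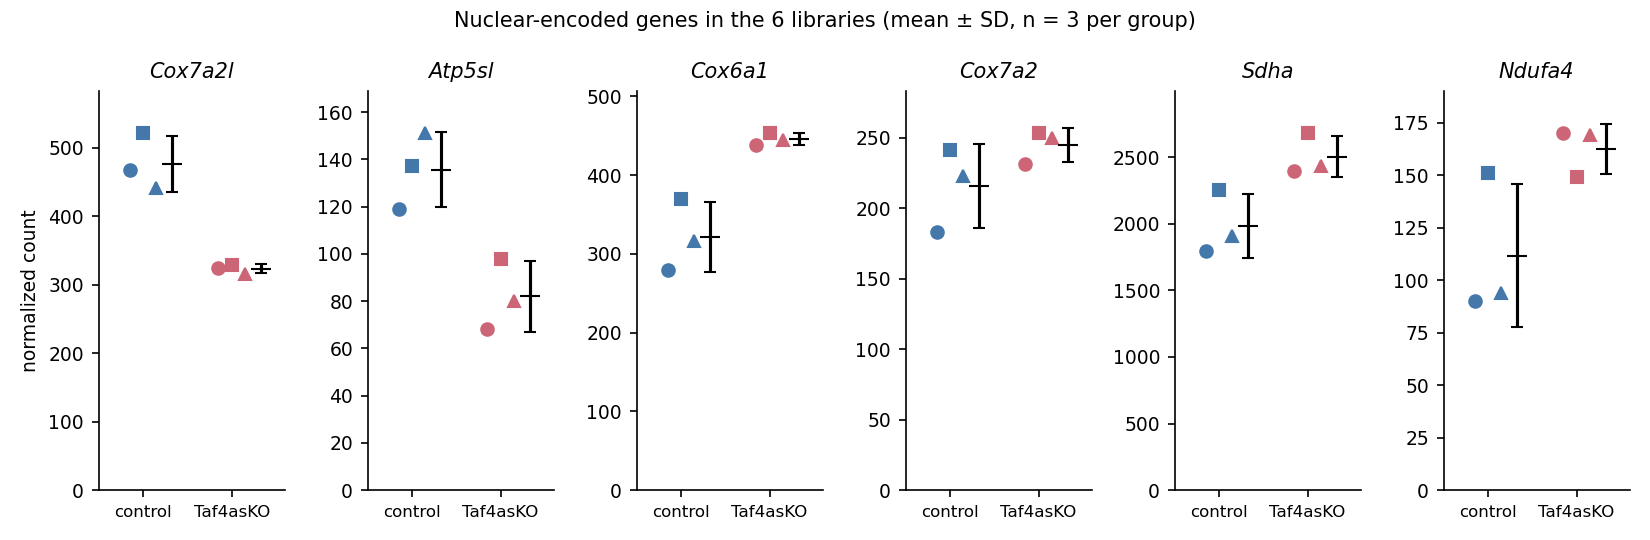
Normalized counts (vertical axes, from 0) of Cox7a2l, Atp5sl, Cox6a1, Cox7a2, Sdha and Ndufa4 in the 3 control (blue) and 3 Taf4asKO (red) libraries; circles, squares and triangles are replicates 1, 2 and 3, and black bars the mean ± SD. Cox7a2l and Atp5sl lie lower and Cox6a1 and Sdha higher in every Taf4asKO library, while Cox7a2 and Ndufa4 overlap.

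In complex V, the ATP synthase, the median of 17 genes was -0.091, and 1 was lower and 0 higher (limma, 5.88% against 12.6% of all tested genes). At an unadjusted p under 0.05 there were 3, against 28.8% of all tested genes, and limma-voom gave the same counts past the threshold. Atp5a1, a subunit of the catalytic head and the nuclear complex V gene with the highest level per kb, was at 4309, 5642 and 4238 normalized counts in control against 4809, 4888 and 4816 in Taf4asKO. Atp5b, which carries the catalytic sites, was at 3669, 5310 and 3599 in control and 4137, 3808 and 3628 in Taf4asKO. Control replicate 2 was the highest of the 6 libraries for both, and the log2 fold changes were 0.045 and -0.098 with intervals within 1.5-fold for Atp5a1 (-0.22 to 0.31) and Atp5b (-0.42 to 0.23).

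Atp5sl (ENSMUSG00000057229, chromosome 7, 25619414 to 25625551, plus strand) was at 119, 137 and 151 normalized counts in control libraries and 68, 98 and 80 in Taf4asKO. The groups did not overlap, and the mean fell from 135.7 ± 16.0 to 82 ± 15.1 (SD, n = 3). The log2 fold change was -0.73 (SE 0.19, limma adjusted p = 0.0345). The call was lost without control replicate 3 (adjusted p = 0.0958) or without Taf4asKO replicate 1 (0.119), 2 (0.0557) or 3 (0.122), at log2 fold changes from -0.86 to -0.60. No subunit of the ATP synthase itself passed in either direction, and with the replicate block Atp5sl was again the only called gene under this name.

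The membrane c-ring, through which protons flow, is encoded by Atp5g1, Atp5g2 and Atp5g3, whose mature proteins are identical. Atp5g2 was at 105, 115 and 91 normalized counts in the controls and 78, 72 and 66 in Taf4asKO, without overlap, with a log2 fold change of -0.52 (limma adjusted p = 0.0945). Atp5g3 was at 425, 560 and 390 in control and 495, 430 and 444 in Taf4asKO, and Atp5g1 at 138, 170 and 135 and at 153, 136 and 156. Per kb, Atp5g2 held 21.9%, 19.1% and 20.8% of the family in control and 15.3%, 16.0% and 14.3% in Taf4asKO, and Atp5g3 68.2%, 71.3% and 68.6% and 74.5%, 73.6% and 74.1%. Both shares were free of overlap, whereas the share of Atp5g1 overlapped.

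Promoter sequences are shown for Cox7a2l and Cox6a1, which passed in opposite directions, and for Cox7a2, the paralog that overlapped between the groups. They come from RefSeq (GRCm38.p6, from 250 bases before to 50 after the gene start, position 1 being the first base after it; read 5′ to 3′ on the minus strand in all 3 cases). Capitals mark matches on either strand to CCAAT (NF-Y), GGGCGG (Sp factors), CCGGAAG (ETS factors, GABP), GCGCANGC (NRF1) or AANATGGC (YY1).
Cox7a2l, chr17:83514284-83514583: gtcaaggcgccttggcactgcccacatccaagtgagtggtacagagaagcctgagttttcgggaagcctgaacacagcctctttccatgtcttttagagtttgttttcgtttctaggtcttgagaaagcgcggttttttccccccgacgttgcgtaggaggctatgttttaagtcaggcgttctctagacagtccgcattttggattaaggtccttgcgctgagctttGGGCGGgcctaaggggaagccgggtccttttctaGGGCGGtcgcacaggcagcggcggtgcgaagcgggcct
Cox7a2, chr9:79759804-79760103: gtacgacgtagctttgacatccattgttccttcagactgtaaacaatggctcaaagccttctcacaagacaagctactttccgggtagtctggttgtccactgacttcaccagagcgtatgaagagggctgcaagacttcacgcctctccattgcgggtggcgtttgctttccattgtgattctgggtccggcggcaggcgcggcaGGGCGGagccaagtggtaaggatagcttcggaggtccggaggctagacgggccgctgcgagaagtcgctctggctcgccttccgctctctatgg
Cox6a1, chr5:115348909-115349208: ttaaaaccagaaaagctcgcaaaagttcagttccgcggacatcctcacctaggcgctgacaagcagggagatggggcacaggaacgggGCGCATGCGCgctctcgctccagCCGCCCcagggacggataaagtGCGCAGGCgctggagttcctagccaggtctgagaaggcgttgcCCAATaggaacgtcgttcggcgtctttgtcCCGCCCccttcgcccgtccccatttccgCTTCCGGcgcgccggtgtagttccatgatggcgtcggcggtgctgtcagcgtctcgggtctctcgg
The window of Cox7a2l held GGGCGG at positions -22 and 13 and that of Cox7a2 held it at -44. The window of Cox6a1 held 7 matches, among them CCAAT at -74, CCGGAAG at -16 on the reverse strand and GCGCANGC at -162, -160 and -117, the first pair of which overlap on opposite strands. No CCAAT was found in either of the other windows in these letters.

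A promoter window was matched for 73 of the 92 nuclear-encoded members, and Atp5sl was not among them. Motifs of factors known to drive nuclear OXPHOS genes were more frequent in them than in 17492 protein-coding promoters of the same length. The windows were chosen by different rules, so the percentages are not on a like basis. For members it was the start nearest to the annotated gene start, and for the 17492 the window with the lowest coordinate of each gene. GCGCANGC was in 32.9% against 13.3%, CCGGAAG in 23.3% against 11.8% and AANATGGC in 21.9% against 6.69%, while CCAAT was in 43.8% against 39.0% and GGGCGG in 43.8% against 45.9%. Members with CCAAT, the motif bound by NF-Y, had a median log2 fold change of 0.034 (32 genes) and those without it 0.10 (41 genes), and with and without GCGCANGC the medians were 0.046 and 0.10. With and without GGGCGG they were 0.13 and 0.0086, with and without CCGGAAG 0.13 and 0.088, and with and without AANATGGC 0.093 and 0.089. These are descriptions with no test.

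The 7 mitochondrially encoded members differed more between libraries of a group than between the groups. They are transcribed together from the mitochondrial genome as long precursors, and all but mt-Nd6 come from the same strand. Every one had its lowest value in replicate 1, its middle value in replicate 3 and its highest in replicate 2, in control and in Taf4asKO alike. Within control the highest library exceeded the lowest 2.29-fold (mt-Nd4) to 4.18-fold (mt-Nd1), and within Taf4asKO 1.49-fold (mt-Cytb) to 1.75-fold (mt-Nd2). For nuclear-encoded members with a mean of at least 20, the median of this ratio was 1.38 in control and 1.14 in Taf4asKO.

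**Figure D5:**
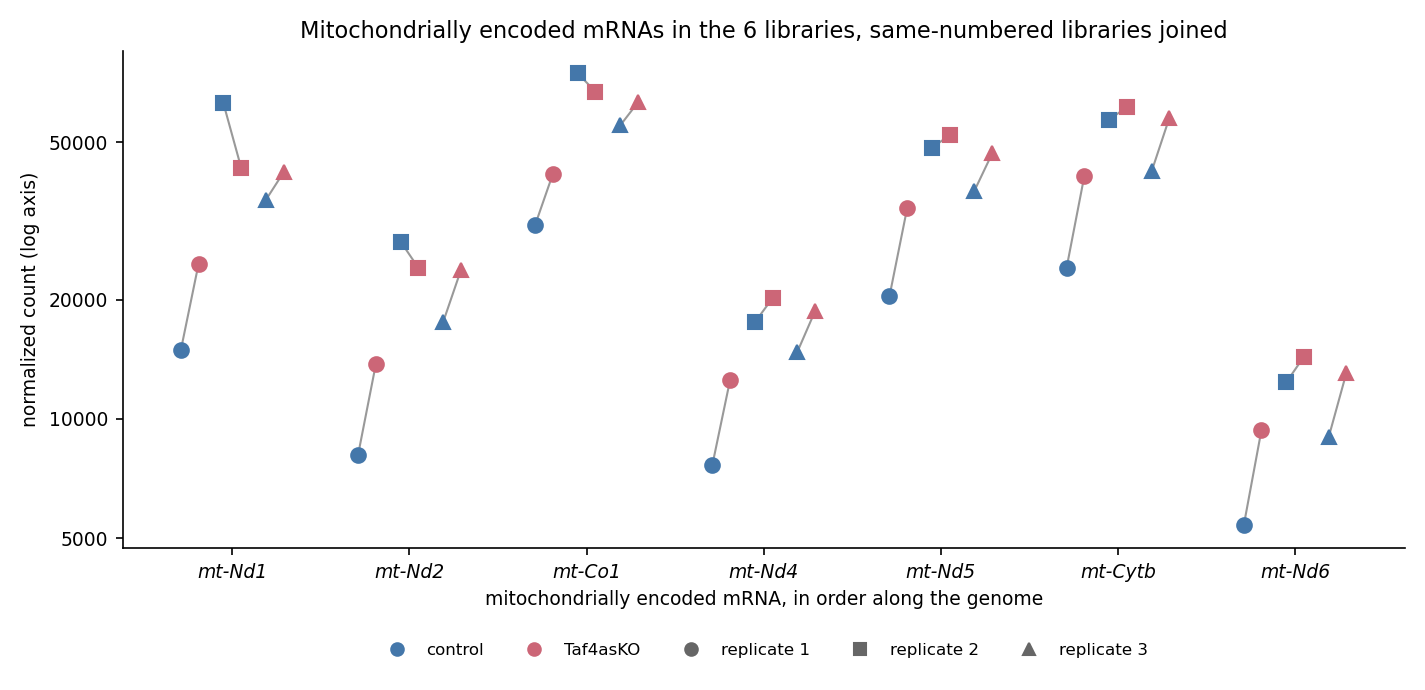
Normalized counts (vertical log axis) of the 7 mitochondrially encoded mRNAs in the 3 control (blue) and 3 Taf4asKO (red) libraries, with grey lines joining libraries of the same replicate number. In both groups replicate 1 is lowest and replicate 2 highest for every gene, and the Taf4asKO library lies above its same-numbered control in replicates 1 and 3 for all 7.

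Among complex I subunits, mt-Nd6, the only one on the other strand (chrM 13552 to 14070), was at 5385, 12376 and 9014 normalized counts in control against 9375, 14367 and 13097 in Taf4asKO. Its Taf4asKO library was 1.74, 1.16 and 1.45 times the control of the same number for replicates 1 to 3. The log2 fold change of 0.52 (SE 0.26) had a limma adjusted p of 0.228 without the block and 0.00894 with it. mt-Nd4 was at 7654, 17551 and 14772 in control and 12530, 20189 and 18727 in Taf4asKO, with a log2 fold change of 0.42 and adjusted p of 0.36 without and 0.0228 with the block. Both overlapped between the groups, and both were higher in all 3 pairs. The end of mt-Nd6 overlaps that of mt-Nd5 on the opposite strand.

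mt-Nd5 was at 20414, 48404 and 37722 normalized counts in control libraries and 34081, 52070 and 46826 in Taf4asKO, also higher in all 3 pairs, with a limma adjusted p of 0.0616 with the block. mt-Nd1 was at 14969, 62615 and 35764 in control and 24691, 43081 and 41986 in Taf4asKO, and mt-Nd2 at 8119, 28060 and 17558 and at 13729, 24087 and 23716. These last genes were lower in Taf4asKO for replicate 2 (0.688 and 0.858 times the control) and higher for the others, and neither passed with the block (0.655 and 0.168). Their fold changes turned negative without control replicate 1, to -0.42 for mt-Nd1 and -0.16 for mt-Nd2.

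mt-Cytb, the cytochrome b of complex III, was at 24091, 57009 and 42191 normalized counts in the controls and 41047, 61253 and 57544 in Taf4asKO. It was higher in all 3 pairs, with a log2 fold change of 0.44 and limma adjusted p of 0.33 without and 0.0415 with the block, which became 0.0571 when upper-quartile scaling was combined with the block and 0.0763 with the GC and length adjustment and the block. mt-Co1, the catalytic subunit of complex IV, was at 30931, 74581 and 55107 in control and 41589, 67080 and 62989 in Taf4asKO. It was lower for replicate 2 (0.899 times the control), and its log2 fold change of 0.16 turned to -0.19 without control replicate 1. With the block, 3 of 7 mitochondrial mRNAs thus passed, all higher, against 9.09% of all tested genes higher in that fit. The count was 2 when the block was combined with upper-quartile scaling or with the GC and length adjustment.

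As a share of the 7 mRNAs, which removes the common factor of each library, mt-Co1 was lower in Taf4asKO (27.7%, 24.8% and 26.0% in control, 23.5%, 23.8% and 23.8% in Taf4asKO) without overlap. The shares of mt-Nd4 (6.86%, 5.84% and 6.96%, then 7.08%, 7.16% and 7.07%), of mt-Nd6 (4.83%, 4.12% and 4.25%, then 5.30%, 5.09% and 4.94%) and of mt-Cytb (21.6%, 19.0% and 19.9%, then 23.2%, 21.7% and 21.7%) were higher without overlap. mt-Nd1 varied most, at 13.4%, 20.8% and 16.9% in control and 13.9%, 15.3% and 15.9% in Taf4asKO. Shares of a whole are tied to each other, and they were not tested.

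The ribosomal RNAs of the mitochondrial genome followed the same order of libraries. mt-Rnr2 was at 857735, 1864540 and 1255160 normalized counts in control against 1033647, 1518129 and 1322162 in Taf4asKO, and mt-Rnr1 at 404112, 851259 and 568629 and at 543644, 770249 and 693403. They made up 10.2% to 18.7% of all normalized counts in control libraries and 12.1% to 16.9% in Taf4asKO. The 7 mRNAs amounted to 8.84%, 11.1% and 11.6% of the mitochondrial ribosomal RNA in control and 11.2%, 12.3% and 13.1% in Taf4asKO. The groups overlapped, and the share was higher in Taf4asKO in each of the 3 pairs, with no test.

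Of 13 mRNAs of the mouse mitochondrial genome, 6 (mt-Nd3, mt-Nd4l, mt-Co2, mt-Co3, mt-Atp6 and mt-Atp8) were not analysed here, so complex V was represented by nuclear genes alone. For mt-Nd3, mt-Nd4l, mt-Co2, mt-Co3 and mt-Atp6 between 97.8% and 99.9% of 75-base windows also occur in annotated nuclear copies of mitochondrial DNA, and for mt-Atp8 0%. Among the analysed mRNAs the shared portion was 61.5% for mt-Nd4 and 39.8% for mt-Co1, and reads with several positions were removed, so levels of these genes are not comparable with those of the others. Gm28438, a nuclear copy of mt-Nd3 on chromosome 1, was at 37, 145 and 72 normalized counts in the controls and 100, 122 and 109 in Taf4asKO.

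Other genes serve the assembly and expression of the OXPHOS system. Of 50 tested assembly factors and electron carriers, 1 was lower and 2 higher, with a median log2 fold change of 0.14 (6% passed, against 12.6% of all tested genes), and with the replicate block 1 was lower and 4 higher (18.1% of all tested genes passed in that fit). Coa7, an assembly factor of the respiratory chain, was lower (89, 127 and 82 normalized counts in control, 53, 54 and 43 in Taf4asKO, log2 fold change -0.96, limma adjusted p = 0.0226). Cox20, a chaperone of the COX2 subunit of complex IV, was higher (220, 178 and 208, then 294, 272 and 292, log2 fold change 0.50, adjusted p = 0.0342). Tmem126b, an assembly factor of the complex I membrane arm, was higher too (110, 128 and 115, then 174, 174 and 163, log2 fold change 0.53, adjusted p = 0.0405). The genes added by the block were Sdhaf2, an assembly factor of complex II (129, 196 and 94, then 213, 217 and 236, adjusted p = 0.0688 without and 0.0274 with the block), and Cox17, a copper chaperone of complex IV (22, 46 and 33, then 65, 56 and 76, adjusted p = 0.0522 and 0.0313). Cycs, cytochrome c itself, overlapped at 170, 224 and 156 and at 210, 182 and 202.

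Of 28 genes for mitochondrial DNA replication and transcription, 1 was lower and 0 higher, with a median of -0.003 (3.57% passed, against 12.6%). With the replicate block 2 were lower, where 8.98% of all tested genes were lower. The gene lower in both fits was Top1mt, the mitochondrial DNA topoisomerase, which was lower, at 268, 300 and 183 normalized counts in control against 100, 91 and 105 in Taf4asKO (log2 fold change -1.31, limma adjusted p = 0.00274). Fastkd2, which acts on mitochondrial RNA, was lower with the block alone (119, 175 and 129, then 94, 102 and 83, log2 fold change -0.58, limma adjusted p = 0.0765 without and 0.0375 with it). Tfam, which packages mitochondrial DNA, was at 325, 445 and 294 in control and 383, 459 and 492 in Taf4asKO, and Polrmt, the mitochondrial RNA polymerase, at 354, 461 and 324 and at 313, 385 and 324, both overlapping.

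Of 20 regulators of mitochondrial gene expression, 3 were lower and 0 higher (15%, against 12.6% of all tested genes), with a median of 0.008. With the replicate block 3 were lower and 1 higher, where 18.1% of all tested genes passed (8.98% lower and 9.09% higher). Ppargc1b (PGC-1 beta) was at 432, 381 and 396 normalized counts in control against 308, 243 and 294 in Taf4asKO (log2 fold change -0.52, limma adjusted p = 0.0278). Pprc1, a further member of this coactivator family, was at 2000, 1710 and 1647 in control and 1449, 1238 and 1156 in Taf4asKO (log2 fold change -0.48, adjusted p = 0.0253). Hcfc1, a cofactor that binds several transcription factors, was at 2683, 2687 and 2331 in control and 1914, 1856 and 1769 in Taf4asKO (log2 fold change -0.47, adjusted p = 0.0112). All Taf4asKO libraries lay below all controls for each of them. Ppargc1a (PGC-1 alpha) lay the other way, at 70, 93 and 112 in control and 144, 134 and 145 in Taf4asKO, with a log2 fold change of 0.64 and adjusted p of 0.0588 without and 0.0332 with the block. Nrf1, Gabpa, Yy1 and Esrra, transcription factors of nuclear OXPHOS genes, had log2 fold changes of -0.014, 0.079, 0.0099 and -0.11, and none passed.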

How the data were processed

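Total RNA-seq of 6 libraries of sorted MuSCs was analysed, 3 control and 3 Taf4asKO, grouped by the labels. Per the study's methods and processing notes, single-end reads of 75 bases were trimmed with Trimmomatic 0.39, aligned to mm10 with STAR 2.6.0c, freed of reads with several positions and counted per gene with featureCounts 1.6.0. The deposited values are a score: the authors normalized counts with DESeq2 1.14.1 and the values were rounded to whole numbers (called normalized counts). Depth in reads is therefore unknown.

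The test was limma 3.58.1 in R 4.3.3 (eBayes with trend, two-sided) for genes with a mean of at least 5, on log2(value + 1), with Benjamini-Hochberg adjustment over 18562 genes. Fold changes on this scale understate changes of low genes. Simulated data were used to test the code. Exon lengths and overlaps came from GENCODE M21, where all 99 members were found. Deviations from group means correlated at 0.235, 0.126 and 0.15 for same-numbered libraries, all above 0.1, so a fit with that number as a block was given where it changed a call of these or the related listed genes. The numbers come from the sample titles. Other alternatives were scaling, filter, a pseudocount of 0.1, limma-voom, GC and length adjustment (splines, 5 degrees of freedom) and leaving out each library. Members, gene lists and tests were chosen with earlier results of these data known. Named genes were all mitochondrially encoded members, called nuclear members, isoform families, catalytic subunits and the highest nuclear gene per kb of each complex, of which 1 gene is not reported here.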

Additional observations from a re-analysis of the deposited data

How the results depend on the processing

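For 38 named genes, 757 values were recomputed under the alternatives: 670 kept their direction and their side of the threshold, 14 lost a call, 38 gained one and 35 changed sign. Medians and sums moved by less than 1 SD of the replicates, and the counts of called genes did not move with limma-voom, a pseudocount of 0.1, no filter or no fold limit. Among all 99 genes, an adjusted p under 0.01 left 0 lower and 0 higher. The higher count of 1 became 2 with upper-quartile scaling, 3 with total-count scaling and 2 with a total free of mitochondrial, ribosomal protein and ribosomal RNA genes, a mean of at least 20 or the GC and length adjustment. Of all genes 5.06%, 5.68%, 6.05%, 7.85% and 5.64% were higher in these fits. All these members were nuclear encoded, with 1 in complex I under the scalings and the higher mean, 2 in complex IV under total-count scaling and 1 in complex III under the GC and length adjustment.

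With the replicate block the higher count was 7, made up of 4 nuclear-encoded genes (1 in complex I, 2 in complex IV) and 3 mitochondrially encoded genes, and complex IV had 2 lower. With the block and the GC and length adjustment it was 10 (10.1%, against 9.27% of all genes of that fit), of which 8 were nuclear encoded (3 in complex I, 1 in complex III, 3 in complex IV) and 2 mitochondrially encoded, and complex I had 1 lower. Of the alternatives chosen after the data were seen, upper-quartile scaling with the block gave 5 higher (3 nuclear, 2 mitochondrial, against 7.82% of all genes) and the reduced total with the block 8 (5 nuclear, 3 mitochondrial, 1 in complex III, against 9.31%), each with 1 higher in complex I and 2 lower and 2 higher in complex IV. Among the 99 genes the block changed no call beyond those given here and beside each gene.

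Over the fits that each left out a library, lower genes numbered 0 to 2 and higher genes 0 to 16, all nuclear encoded. The higher ranges were 0 to 5 in complex I, 0 to 2 in complex II, 0 to 1 in complex III, 0 to 4 in complex IV and 0 to 2 in complex V, and the lower ranges 0 to 1 in complexes IV and V. In these fits the sign changed for Atp5a1 (-0.028 to 0.18), Atp5b (-0.20 to 0.084), Atp5g1 (-0.049 to 0.12), Atp5g3 (-0.099 to 0.16), Cyc1 (-0.082 to 0.19), Cox6a2 (-0.095 to 0.48), Cox6b2 (-0.21 to 0.29), Cox8b (-0.59 to 0.31), mt-Co1 (-0.19 to 0.44), mt-Nd1 (-0.42 to 0.62) and mt-Nd2 (-0.16 to 0.73), none of which passed there. Upper-quartile scaling turned Atp5g1 to -0.027 and Atp5g3 to -0.030, with or without the block. The GC and length adjustment turned Atp5g1 to -0.037, Cox4i1 to 0.041, Cox6b2 to 0.16, Cox8b to 0.070 and Ndufb11 to 0.015. Apart from settings whose construction leaves fewer samples, the cause was not tested. With rounded normalized values the reads behind each gene are unknown, so no counting interval is given.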
